A study of Homo sapiens with 25 samples.

Results

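AC015712.6 is a long noncoding RNA (lncRNA) gene on chromosome 15q26.3, and its RNA is taken here to be candidate 240, the target of 2 of the antisense oligonucleotides (ASOs) in this study. It is described together with 7 genes around it: the lncRNA genes AC015712.1 and AC015712.2 and the protein-coding genes ALDH1A3, LRRK1, CHSY1, ASB7 and LINS1. The 8 genes were chosen by name and position, as the rows of those names among the 59427 gene names of the deposited table. The labels name the target only as candidate 240, and its identity with AC015712.6 comes from knowledge of the study.

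RNA was sequenced from the established human lung cancer lines A549, derived from an adenocarcinoma, and NCI-H460, derived from a large cell carcinoma. Cells received 25 nM of an ASO and were collected 24 h after transfection. In each line a neutral control ASO from Qiagen was set beside ASO3 and ASO1 against candidate 240, and ASO3 and ASO5 against another lncRNA, candidate 42. Each A549 group held n = 3 libraries, numbered 3, 4 and 5, and each NCI-H460 group n = 2, numbered 1 and 2. Separate cultures are not stated in the labels, so p-values measure only the spread between the libraries.

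An ASO base-pairs with its target RNA, which RNase H then cleaves. A lncRNA can act in cis, on genes near its own site of transcription, or in trans, elsewhere in the cell; the levels of neighbouring genes after loss of the lncRNA are the usual first readout of a cis effect. ALDH1A3, the nearest neighbour, is a retinaldehyde dehydrogenase that makes retinoic acid and is a marker of stem-like cells in several carcinomas.

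Per the authors' tables (hg38), AC015712.6 (ENSG00000272808, now named GCAWKR) lay on the + strand at chr15:100849831-100876836, 27.006 kb long. AC015712.1, on the same strand at chr15:100849561-100861756, overlapped it. ALDH1A3 began 877 bp after its end, at chr15:100877714-100916626 on the + strand. AC015712.2 (now ALDH1A3-AS1), at chr15:100892343-100919391 on the - strand, was antisense to ALDH1A3. Its 3′ end, the nearer one, lay 15.506 kb beyond AC015712.6, and its 5′ end overlapped the start of LRRK1 on the opposite strand. LRRK1 (chr15:100919327-101078257, + strand) followed at 42.49 kb, and CHSY1 (chr15:101175727-101252048, - strand) at 298.89 kb. On the other side ASB7 (chr15:100602589-100651701, + strand) ended 198.129 kb before AC015712.6. The nearer end of LINS1 (chr15:100559369-100603230, - strand), its 5′ end, lay 246.6 kb before AC015712.6. Only AC015712.1 overlapped the body of AC015712.6 among the 7 neighbours.

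The exons show how far the 2 overlapping lncRNAs can be told apart, and are given 5′ to 3′ from GENCODE 29 transcripts (GRCh38, + strand). Capitals mark bases that also lie in exons of AC015712.1. The first exon, the fourth exon and the fifth exon of the shorter transcript were:
Exon 1 of AC015712.6, chr15:100849831-100849910: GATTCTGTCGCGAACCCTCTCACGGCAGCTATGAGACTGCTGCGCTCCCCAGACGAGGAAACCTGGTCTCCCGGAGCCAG
Exon 4 of AC015712.6, chr15:100859800-100860035: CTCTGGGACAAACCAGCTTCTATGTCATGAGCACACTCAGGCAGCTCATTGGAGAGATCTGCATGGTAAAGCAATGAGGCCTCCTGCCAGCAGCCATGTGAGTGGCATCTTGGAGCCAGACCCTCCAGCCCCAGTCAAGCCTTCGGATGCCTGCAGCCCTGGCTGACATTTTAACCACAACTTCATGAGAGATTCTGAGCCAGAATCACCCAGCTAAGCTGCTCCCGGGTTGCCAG
Exon 5 of AC015712.6, transcript ENST00000647806.1, chr15:100867358-100867439: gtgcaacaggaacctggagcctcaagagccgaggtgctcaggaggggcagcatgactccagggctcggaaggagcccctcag
Exons 1 and 4 lay wholly inside AC015712.1, as did exons 2 and 3, whereas the 82-base exon 5 shared no base with it. Each base run of 31 in exons 1 and 4 occurred in the transcripts of no gene name other than these 2 (0% of such runs elsewhere). Of exons 2 and 3 (122 and 118 bases), 100% of the runs of 31 also occurred in transcripts of 2159 and 2230 other gene names, and they are not printed. The runs of exon 5 also occurred, at 100%, in 2 other names, AC015712.4 and AC015712.5, which lie there. Counted over whole transcripts, 501 runs of 31 bases were shared, 6.16% of the 8134 in AC015712.6 and 32.8% of the 1529 in AC015712.1. The 2 transcripts of AC015712.6 were 5068 and 3652 bases long and the 5 of AC015712.1 were 516 to 755. Reads from the shared exons can be split between the genes only by the authors' estimation, so the 2 lncRNA levels are not independent measurements.

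In A549 the candidate 240 RNA was scarce, and fell to 4.44% of control with ASO3; with ASO1 it stood at 53.4% of control and did not pass the test. AC015712.1 fell with ASO3 as well. The nearest coding gene, ALDH1A3, did not pass the test with either ASO. LRRK1 and CHSY1, farther along, fell with ASO3, and both were lower with ASO3 than with ASO1 by direct test.

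AC015712.6 stood at 0.267, 0.418 and 0.354 TPM (transcripts per 1000000, a level per transcript length) in the A549 control libraries. With candidate 240 ASO3 it was listed at 0, 0.0297 and 0.0164 TPM. With ASO1 it stood at 0.128, 0.249 and 0.178 TPM. Every ASO3 library was below every ASO1 library, and every ASO1 library was below every control library. How many of all names separate in this way was not counted, here or for the genes below, so such separation is a description. The group means were 0.347 ± 0.0757 TPM (SD, n = 3) in control, 0.0154 ± 0.0149 with ASO3, or 4.44% of control, and 0.185 ± 0.0609 with ASO1, or 53.4% of control. In a fit for scarce genes on log2(TPM + 0.1), over gene names with a mean of at least 0.1 TPM, limma gave AC015712.6 a log2 fold change of -1.95 with ASO3 (SE 0.33, adjusted p = 0.00209). In that fit 8.85% of the 23525 tested names were called at an adjusted p under 0.05. For ASO1 the value was -0.65 (95% confidence interval -1.36 to 0.05, unadjusted p = 0.0677, adjusted p = 1), with 0.0085% of names called. ASO3 minus ASO1, a comparison that uses no control library, gave -1.29 (SE 0.33, adjusted p = 0.0233, 10.4% of names called). Added constants understate the fold of so scarce an RNA. In a fit of the 2 compared groups alone the adjusted p for ASO3 was 0.0964 with the same log2 fold change.

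The ASOs against candidate 42 served as a second reference for the same RNA. AC015712.6 stood at 0.328, 0.296 and 0.365 TPM with candidate 42 ASO3 and at 0.430, 0.619 and 0.591 TPM with candidate 42 ASO5. The first group overlapped control, and the second lay wholly above it at 158% of control. The fit for scarce genes gave 0.54 for ASO5 (95% confidence interval -0.17 to 1.25, adjusted p = 0.552, 1.84% of names called) and -0.04 for ASO3 (adjusted p = 0.981, 6.22% of names called), so neither passed.

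**Figure D1:**
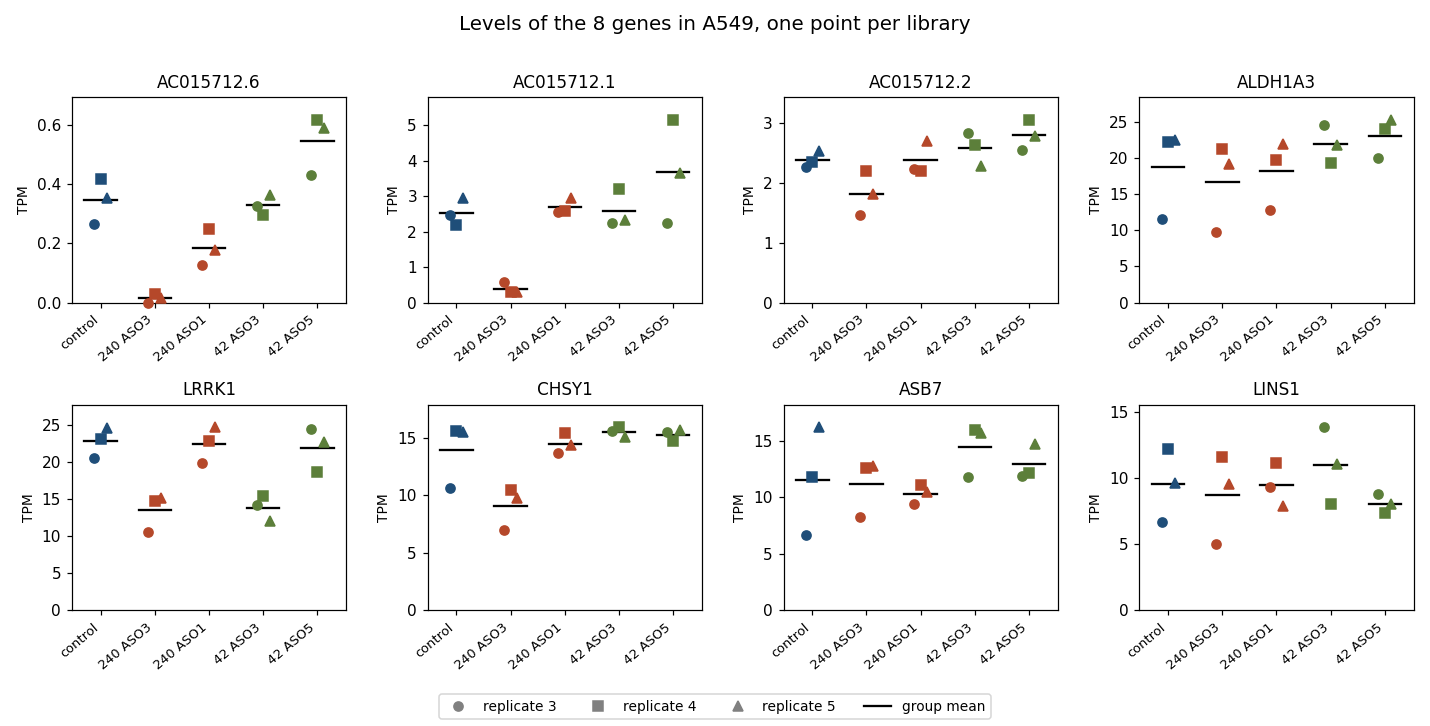
TPM of each of the 8 genes (vertical axis, linear, from 0) in the 15 A549 libraries by ASO group (horizontal axis); points are libraries, with a marker shape per replicate, and black lines are group means. AC015712.6 and AC015712.1 are lowest in the candidate 240 ASO3 libraries, while ALDH1A3 overlaps between that group and control.

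AC015712.1, the overlapping lncRNA, was more abundant per length than AC015712.6. It stood at 2.48, 2.19 and 2.94 TPM in the A549 control libraries and at 0.568, 0.310 and 0.307 TPM with candidate 240 ASO3, with no overlap between the groups. ASO3 left 15.6% of the control mean, a log2 fold change of -1.77 on the log2(TPM + 0.5) scale (SE 0.25, limma adjusted p = 0.000311). With ASO1 the libraries stood at 2.56, 2.58 and 2.96 TPM, overlapping control, and the log2 fold change was 0.08 (95% confidence interval -0.45 to 0.61). By description, AC015712.6 was at 53.4% and AC015712.1 at 106% of control under ASO1. Neither passed the test, and the difference between the 2 lncRNAs, whose shared reads are split by estimation, was not tested. In the authors' deposited table AC015712.6 had a log2 fold change of -4.47 (q = 0.00791) and AC015712.1 one of -2.67 (q = 0.0112) with ASO3.

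AC015712.2, the antisense RNA of ALDH1A3, stood at 2.27, 2.34 and 2.52 TPM in the A549 control libraries and at 1.46, 2.19 and 1.81 TPM with ASO3. Every ASO3 library was below every control library, at 76.5% of the mean, but the log2 fold change of -0.32 (95% confidence interval -0.68 to 0.04) did not pass (limma adjusted p = 0.241). ASO1 libraries stood at 2.23, 2.20 and 2.70 TPM, overlapping control. The sources used here do not say whether the counting used strand, so reads of AC015712.2 and ALDH1A3 may not have been told apart where the genes overlap.

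ALDH1A3 stood at 11.6, 22.3 and 22.6 TPM in the A549 control libraries, 9.83, 21.3 and 19.2 TPM with ASO3 and 12.8, 19.7 and 22.0 TPM with ASO1. The 3 groups overlapped, and in each of them replicate 3 was the lowest library. The means were 18.8 ± 6.25 TPM in control, 16.8 ± 6.10 with ASO3 and 18.2 ± 4.80 with ASO1 (SD, n = 3). Its log2 fold change was -0.18 with ASO3 (95% confidence interval -0.81 to 0.46, limma adjusted p = 0.778) and -0.03 with ASO1 (95% confidence interval -0.66 to 0.61). Within same-numbered libraries, which pair these groups, ASO3 minus control was -0.23, -0.07 and -0.23 on the log2 scale. With the replicate block the interval narrowed to -0.64 to 0.29 and the adjusted p was 0.593. In bulk RNA a lower level in every cell and fewer cells with the RNA cannot be told apart.

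LRRK1, a large multidomain kinase related to the Parkinson's disease kinase LRRK2 and known for its role in osteoclasts, stood at 20.7, 23.2 and 24.7 TPM in A549 control. With ASO3 it stood at 10.6, 14.7 and 15.2 TPM, 59.1% of the control mean, and no library overlapped control. The log2 fold change was -0.75 (SE 0.16, limma adjusted p = 0.00506). With ASO1 the libraries stood at 19.9, 22.9 and 24.7 TPM, overlapping control, and the log2 fold change was -0.02 (95% confidence interval -0.36 to 0.31). A decline of a like size was measured with candidate 42 ASO3, which targets another RNA: 14.2, 15.4 and 12.04 TPM, or 60.8% of the control mean, with a log2 fold change of -0.70 (SE 0.16, adjusted p = 0.011). With candidate 42 ASO5 the libraries stood at 24.5, 18.8 and 22.8 TPM and overlapped control. The 42 ASO3 call was lost when columns were rescaled to a common sum (adjusted p = 0.0536) and without 42 ASO3 replicate 5 (adjusted p = 0.0597), and the 240 ASO3 call in a fit of the 2 groups alone (adjusted p = 0.0643).

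CHSY1, a synthase that builds the chondroitin sulfate chain, stood at 10.7, 15.6 and 15.6 TPM in A549 control and at 6.98, 10.4 and 9.80 TPM with ASO3. No ASO3 library reached the lowest control library, and the mean was 65.0% of control. The log2 fold change was -0.59 (SE 0.16, limma adjusted p = 0.0233). ASO1 libraries stood at 13.7, 15.4 and 14.4 TPM, inside the control range, with a log2 fold change of 0.07 (95% confidence interval -0.27 to 0.42). The CHSY1 call was the least stable of the 3: it was lost without control replicate 4 (adjusted p = 0.101), control replicate 5 (0.0911) or ASO3 replicate 3 (log2 fold change -0.42, adjusted p = 0.0736), after rescaling to a common sum (0.0927) and in a fit of the 2 groups alone (0.203).

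ASB7, the substrate-binding subunit of a ubiquitin ligase, stood at 6.63, 11.9 and 16.2 TPM in A549 control and at 8.28, 12.6 and 12.8 TPM with ASO3. LINS1, a gene mutated in intellectual disability, stood at 6.70, 12.2 and 9.64 TPM in control and at 5.02, 11.6 and 9.55 TPM with ASO3. Both groups overlapped for both genes. The log2 fold changes were 0.02 (95% confidence interval -0.53 to 0.57) for ASB7 and -0.16 (95% confidence interval -0.76 to 0.45) for LINS1.

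Of the 7 genes other than AC015712.6 that reached a mean of 1 TPM in A549, 3 fell and 0 rose with candidate 240 ASO3, with a median log2 fold change of -0.32. Over all 14740 tested names 13.8% were called, 6% higher and 7.82% lower, and the median was -0.01. With ASO1, limma called 0 of 7 and 0% of all names; 0 of the 7 and 267 of all names reached an unadjusted p under 0.05. The authors' deposited table listed 0 names at a q under 0.05 for this ASO. The direct comparison of ASO3 with ASO1 called the same 3 genes lower as ASO3 against control, where 16.7% of all names were called: AC015712.1 at -1.85 (adjusted p = 0.000202), LRRK1 at -0.73 (0.00583) and CHSY1 at -0.67 (0.0111). The CHSY1 call in this comparison was lost after rescaling to a common sum (adjusted p = 0.0532) and in a fit of the 2 groups alone (0.0601). For ALDH1A3 the ASO3 minus ASO1 difference was -0.15 (95% confidence interval -0.79 to 0.49). Candidate 42 ASO3 called 1 of 7 (LRRK1, lower), against 10.1% of all names. Candidate 42 ASO5 called 0 of 7 in limma, 0 of them at an unadjusted p under 0.05, against 3.82% of all names.

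**Figure D2:**
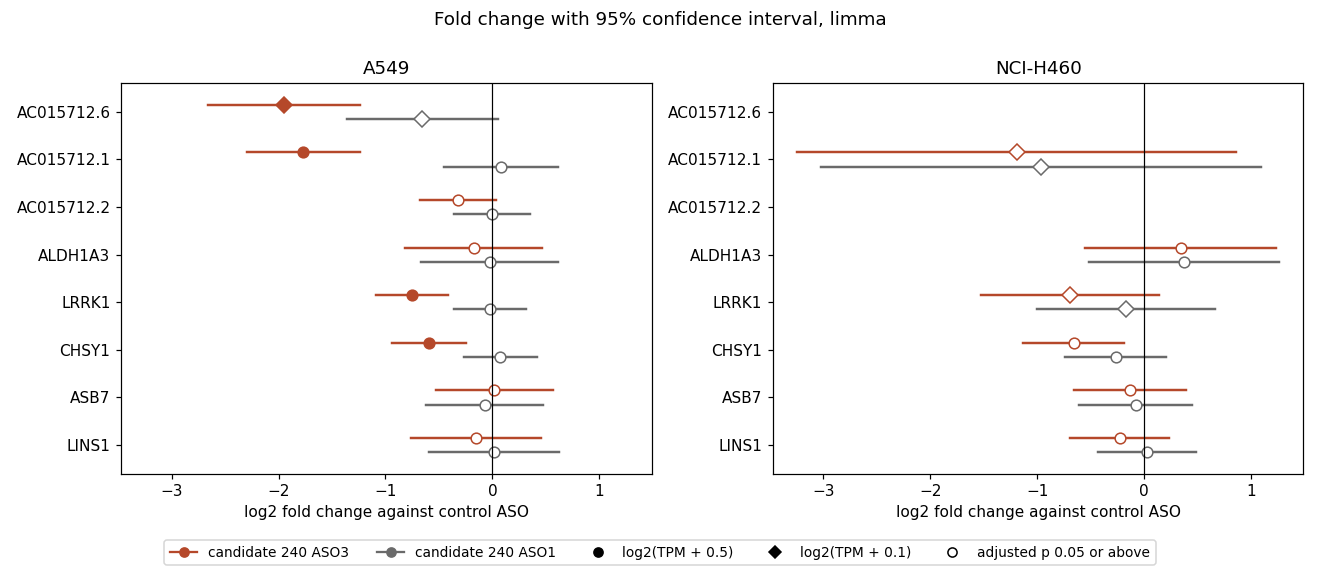
Log2 fold change against control (horizontal axis) of each gene (vertical axis) with candidate 240 ASO3 and ASO1 in A549 and NCI-H460; points are limma estimates, lines are 95% confidence intervals, and filled symbols passed an adjusted p of 0.05. Diamonds come from the fit for scarce genes. In A549 the 4 filled symbols are ASO3 values of AC015712.6, AC015712.1, LRRK1 and CHSY1, and no ASO1 value is filled.

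In NCI-H460 control the RNA of the genes from AC015712.1 to LRRK1 was lower than in A549 control, while LINS1 and CHSY1 stood at like levels. The control means in A549 over those in NCI-H460 had a ratio of 38.1 for AC015712.2, 34.8 for LRRK1, 21.3 for ALDH1A3, 5.43 for AC015712.1 and 4.44 for AC015712.6. The ratio was 3.02 for ASB7, 1.32 for LINS1 and 1.19 for CHSY1. Among 15456 gene names at 1 TPM or more in either control and above 0 in both, the median ratio was 1.17. Of these, 741 names (4.79%) had a ratio of at least 10. AC015712.6, under 1 TPM in both controls, is outside this set, and the AC015712.2 ratio rests on 0.115 and 0.0102 TPM in NCI-H460 control. These ratios between lines are a description, with no test. The 3 largest ratios belonged to neighbours, ALDH1A3, its antisense RNA and LRRK1.

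AC015712.6 stood at 0.0492 and 0.107 TPM in NCI-H460 control, 0.0169 and 0.0760 with ASO3 and 0.0914 and 0.0816 with ASO1, and the groups overlapped. Its mean and that of AC015712.2 lay under 0.1 TPM over the line, so neither was tested, and a loss of AC015712.6 was not detectable in this line. AC015712.1 stood at 0.586 and 0.347 TPM in control, 0.0669 and 0.252 with ASO3 and 0 and 0.707 with ASO1. Both ASO3 libraries lay below both controls, while 1 ASO1 library was listed at 0 and the other was above both. The fit for scarce genes gave AC015712.1 a log2 fold change of -1.19 with ASO3 (95% confidence interval -3.25 to 0.86, limma adjusted p = 0.537, 2.4% of names called) and -0.96 with ASO1 (adjusted p = 0.952, 0.00897% of names called).

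ALDH1A3 stood at 1.26 and 0.507 TPM in NCI-H460 control, 0.876 and 1.56 with ASO3 and 1.10 and 1.37 with ASO1. The groups overlapped, and the log2 fold change with ASO3 was 0.34 (95% confidence interval -0.55 to 1.23). LRRK1 stood at 0.492 and 0.819 TPM in control and 0.397 and 0.320 with ASO3, without overlap, but its value of -0.69 in the fit for scarce genes (95% confidence interval -1.52 to 0.14) did not pass (limma adjusted p = 0.377). CHSY1 stood at 11.8 and 11.7 TPM in control, 7.85 and 6.70 with ASO3 and 8.90 and 10.5 with ASO1. Both ASO groups lay below control, at 62.0% and 82.8% of it. Such separation rests on 2 libraries a group, and its share over all names was not counted. With candidate 42 ASO5, which targets another RNA, CHSY1 also lay below control, at 8.87 and 10.02 TPM or 80.5% of it. The candidate 240 ASO3 log2 fold change of -0.66 for CHSY1 (SE 0.21) had a limma adjusted p of 0.0987, and 0.0447 in a fit of the 2 groups alone. ASB7 and LINS1 gave -0.13 and -0.23 with ASO3, neither past the test.

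Of the 4 genes that reached 1 TPM in NCI-H460 (ALDH1A3, ASB7, LINS1 and CHSY1), limma called 0 with candidate 240 ASO3, and 1 (CHSY1) had an unadjusted p under 0.05. Over all 13774 tested names 5.66% were called, 2.65% higher and 3.01% lower. In the authors' deposited table CHSY1 had a q of 0.0582 with ASO3. With ASO1 limma called 0 of 4 and 0% of all names; 0 of 4 and 493 of all names reached an unadjusted p under 0.05. At a q under 0.05, 0 names stood in the authors' deposited table. The direct ASO3 minus ASO1 comparison called 0 of 4, with 0 at an unadjusted p under 0.05 and 2.92% of all names called.

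**Figure D3:**
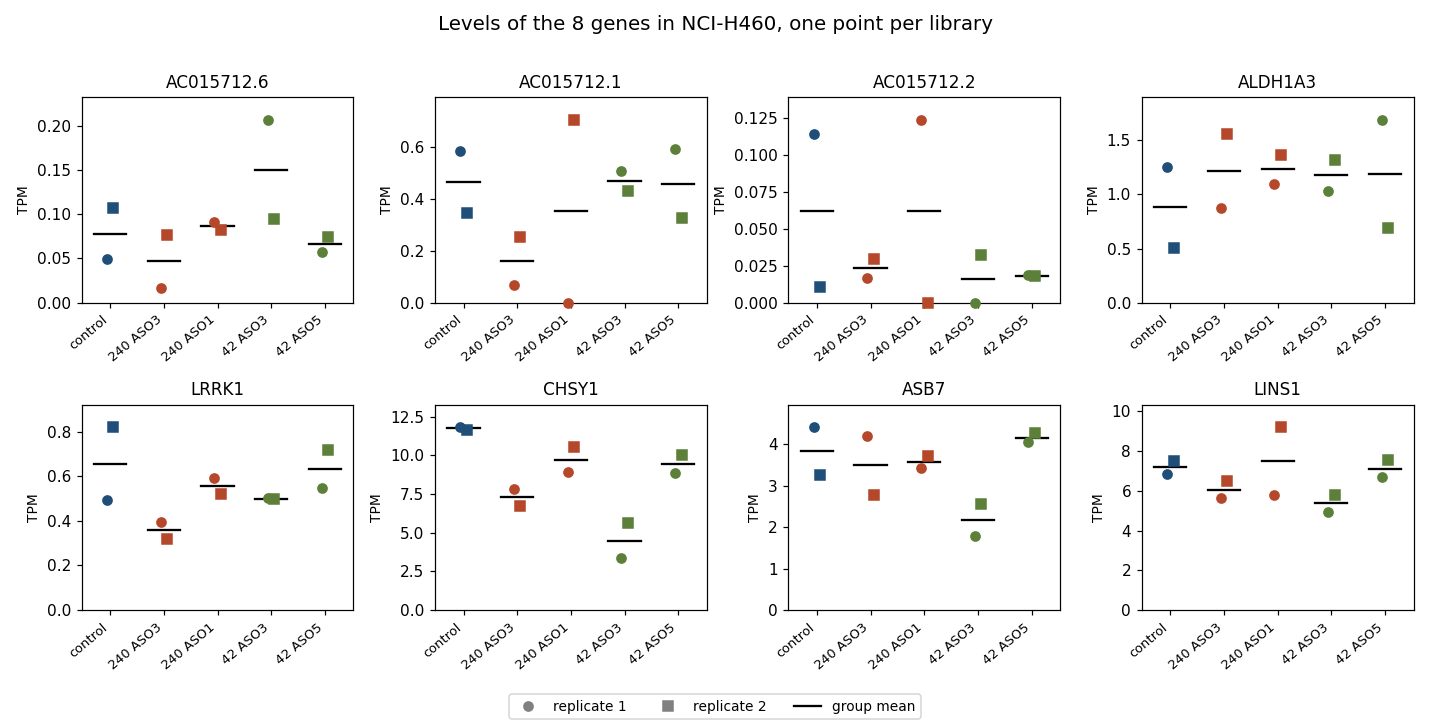
TPM of each of the 8 genes (vertical axis, linear, from 0) in the 10 NCI-H460 libraries by ASO group (horizontal axis); points are libraries and black lines are group means. CHSY1 is highest in the 2 control libraries and lowest with candidate 42 ASO3, and AC015712.6 overlaps between candidate 240 ASO3 and control.

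The response to candidate 240 ASO3 was not shown to differ between the lines for any of the 7 genes that reached a mean of 1 TPM over all 25 libraries. The interaction in a limma model of all 25 libraries called 0 of 7, against 1.21% of 14769 names, and 1 of them (AC015712.1) had an unadjusted p under 0.05. For AC015712.1 the A549 response less the NCI-H460 response was -1.21 (95% confidence interval -2.16 to -0.27, adjusted p = 0.264), and for LRRK1 -0.33 (95% confidence interval -0.85 to 0.18). In NCI-H460 control AC015712.2 (0.0624 TPM), AC015712.1 (0.467) and LRRK1 (0.655) lay near or below the added constant of 0.5. The constant draws their response in that line towards 0, so the interaction cannot decide for these genes. In the fits for scarce genes LRRK1 had -0.77 in A549 and -0.69 in NCI-H460. For ASO1 limma called 0 of 7 and 0% of all names in the interaction, with 0 of 7 and 410 of all names at an unadjusted p under 0.05.

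CHSY1 was the member whose response to an ASO differed between the lines, and that ASO was candidate 42 ASO3. In NCI-H460 it stood at 3.33 and 5.60 TPM with candidate 42 ASO3, 38.1% of control, a log2 fold change of -1.34 (SE 0.21, limma adjusted p = 0.00138). In A549 it stood at 15.6, 15.9 and 15.1 TPM with the same ASO, 111% of control. The interaction was 1.51 (SE 0.27, adjusted p = 0.00242), the 1 call among 7, against 19.7% of all names. On the first principal component of NCI-H460 (48.2% of variance) both libraries with this ASO stood apart, at 72.16 and 38.71, from the others at -28.48 to 3.06; its part in the CHSY1 value was not tested. ASB7 also fell in NCI-H460 with this ASO, from 4.40 and 3.26 to 1.79 and 2.54 TPM (log2 fold change -0.70, adjusted p = 0.035), and its interaction of 1.09 had an adjusted p of 0.0526. These 2 of 4 stand against 46% of all names called and a median of -0.20 over all names in that comparison; with median-of-ratios scaling ASB7 did not pass (adjusted p = 0.0777). Candidate 42 ASO5 called 0 of 4 in NCI-H460 (0 at an unadjusted p under 0.05, 0.508% of all names called) and 0 of 7 in the interaction (0 at an unadjusted p under 0.05, 0.0339% of all names).

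The wider neighbourhood was read from a list of 26 genes of 15q26.3, of which 25 were in the table and 14 could be tested in A549. With candidate 240 ASO3, 0 rose and 5 fell, with a median log2 fold change of -0.17: AC015712.1, LRRK1, CHSY1, PCSK6 and TM2D3. These 5 of 14 stand against 7.82% of all names called lower, and AC015712.1 among them shares exons with AC015712.6. With the replicate block 5 were called in either direction, all of them lower, against 25.1% of all names. Of 57 names in the table within 1 Mb, 14 were tested and the same 5 were called. Besides the overlapping AC015712.1 these lay on the ALDH1A3 side, where most of the tested names lie. AC015712.2, ALDH1A3, SELENOS and SNRPA1 lie there too and were not called. SELENOS and SNRPA1, which lie between CHSY1 and PCSK6, had log2 fold changes of -0.01 and 0.02. PCSK6, a proprotein convertase, went from 12.8 ± 1.87 to 5.71 ± 0.904 TPM (SD, n = 3; log2 fold change -1.10, limma adjusted p = 0.00101). PCSK6 stood at 4.46 ± 0.205 TPM with candidate 42 ASO3, which targets another RNA. TM2D3 went from 40.8 ± 2.83 to 29.6 ± 1.87 TPM (log2 fold change -0.45, adjusted p = 0.0039). In NCI-H460 limma called 0 of 11 tested neighbours with ASO3, where PCSK6 had -0.61 (adjusted p = 0.0612) and TM2D3 -0.31 (adjusted p = 0.078). With ASO1 limma called 0 in either line.

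**Figure D4:**
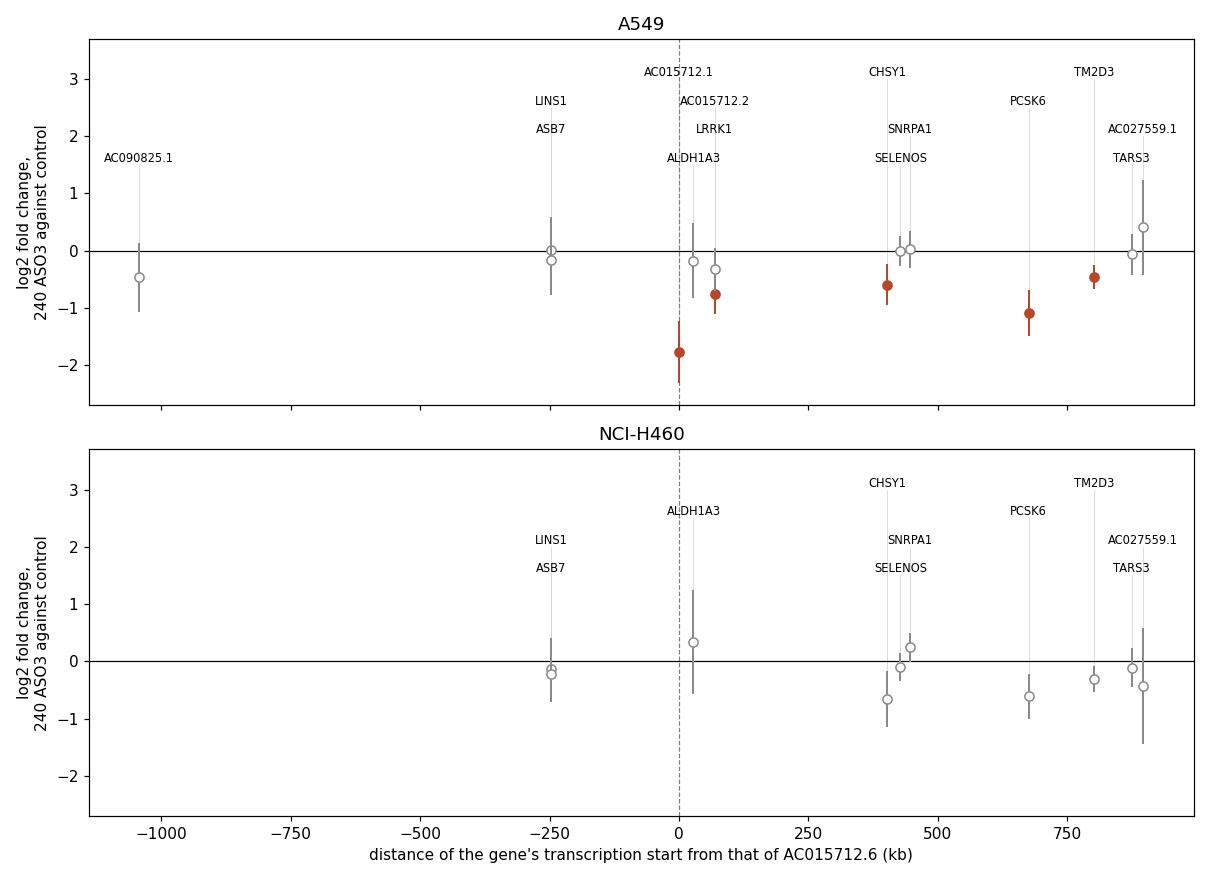
Log2 fold change with candidate 240 ASO3 against control (vertical axis) by distance of each gene's start from the start of AC015712.6 (horizontal axis, kb; positive towards ALDH1A3) for tested gene names within 1 Mb in A549 and NCI-H460. Points are limma estimates, lines are 95% confidence intervals and filled points passed an adjusted p of 0.05: 5 of 14 in A549 and 0 of 10 in NCI-H460.

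ALDH1A3 acts in the retinoic acid pathway, and its 37 listed genes included 27 tested in A549. With ASO3, 3 rose and 2 fell, against 13.8% of all names called, with a median log2 fold change of -0.05. RARB, a retinoic acid receptor that is itself induced by retinoic acid, fell from 7.53 ± 1.67 to 2.12 ± 1.01 TPM in A549 (-1.69, limma adjusted p = 0.00195) and from 5.80 ± 0.234 to 2.18 ± 0.242 TPM in NCI-H460 (SD, n = 2; -1.23, adjusted p = 0.00468). TGM2, a transglutaminase induced by retinoic acid, fell from 152 ± 18.1 to 93.5 ± 16.2 TPM in A549. CYP26A1, which degrades retinoic acid and is induced by it, rose from 2.01 ± 0.195 to 3.52 ± 0.519 TPM in A549, and PLAAT4, another retinoic acid response gene, from 6.48 ± 1.51 to 11.99 ± 1.57 TPM. The response genes of the list therefore moved in both directions. With the replicate number as a block, which pairs these libraries, 12 of 27 were called (4 higher, 8 lower) against 25.1% of all names. Without all replicate 3 libraries 10 were called, in a fit where the share of all names was not counted. In NCI-H460 2 of 19 tested rose and 1 fell, against 5.66% of all names called, with a median of 0.16: CRABP1, a retinoic acid-binding protein, went from 0.484 ± 0.306 to 2.08 ± 0.198 TPM and FABP5, a fatty acid- and retinoic acid-binding protein, from 245 ± 7.27 to 359 ± 1.03 TPM.

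The paralog ALDH1A1 was far more abundant per length than ALDH1A3 in A549. Its level was 3549 ± 428 TPM in control and 2815 ± 204 with ASO3, a log2 fold change of -0.33 (95% confidence interval -0.63 to -0.03, limma adjusted p = 0.147). In NCI-H460 it was 137 ± 3.35 TPM in control and 124 ± 8.14 with ASO3. ALDH1A2 was scarce, at 0.715 ± 0.653 TPM in A549 control, and was listed at 0 in both NCI-H460 control libraries.

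The chondroitin sulfate pathway of CHSY1 had 19 listed genes and 17 tested in each line. With ASO3, 1 rose and 6 fell in A549 (median -0.41), and 1 rose and 4 fell in NCI-H460 (median -0.34), against medians of all names of -0.01 and -0.03. Of all names 6% were called higher and 7.82% lower in A549, and 2.65% higher and 3.01% lower in NCI-H460. CHST11, a chondroitin 4-O-sulfotransferase, fell from 24.1 ± 4.12 to 6.62 ± 0.652 TPM in A549 (-1.78, limma adjusted p = 0.000196) and from 5.08 ± 0.560 to 1.33 ± 0.484 TPM in NCI-H460 (-1.63, adjusted p = 0.00974). XYLT2, which starts the chain on the core protein, fell from 24.5 ± 2.54 to 10.5 ± 0.724 TPM in A549 and from 15.2 ± 0.722 to 10.2 ± 0.999 TPM in NCI-H460. UST, a 2-O-sulfotransferase, fell from 4.005 ± 1.10 to 1.03 ± 0.371 TPM in A549, and CHST12, another 4-O-sulfotransferase, from 19.7 ± 3.40 to 12.5 ± 1.36 TPM. XYLT1, the paralog of XYLT2, fell from 14.9 ± 0.747 to 6.97 ± 1.12 TPM in NCI-H460, and CHST15, which adds a further sulfate to chondroitin, from 27.4 ± 0.466 to 15.6 ± 0.872 TPM. CHST13 rose from 1.45 ± 0.194 to 3.56 ± 0.940 TPM in A549. CHSY1 was thus 1 of 6 genes of its pathway called lower with this ASO in A549. With the replicate block 8 of 17 were called lower and 1 higher, against 25.1% of all names called in either direction. With ASO1 limma called 0 genes of either pathway in either line.

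Across the 15 A549 libraries the level of AC015712.6, on log2(TPM + 0.1), went with that of AC015712.1 (Pearson r = 0.879), AC015712.2 (0.823) and CHSY1 (0.840), and less with ALDH1A3 (0.561) and LRRK1 (0.521). ALDH1A3 went with ASB7 (0.771). In the 10 NCI-H460 libraries, where AC015712.6 was scarcer, its r was 0.256 with AC015712.1, -0.253 with AC015712.2 and -0.589 with CHSY1. There it was -0.124 with ALDH1A3 and 0.281 with LRRK1, and ALDH1A3 with ASB7 had -0.077. These correlations take in the ASO groups and share libraries, and are given as a description. The names most like AC015712.6 in A549, at a mean of 1 TPM or more, were TULP3 (r = 0.947), FAM230B (0.940), RPS10P7 (0.938), TTLL6 (0.935) and MIR641 (0.924). Over the 10 NCI-H460 libraries the same pairs had r = 0.06, 0.73, 0.10, 0.17 and -0.17. The 0.73 belongs to FAM230B, which reached at most 0.195 TPM in NCI-H460. FAM230B was listed at 0 there with both candidate 240 ASOs and with candidate 42 ASO5. TTLL6 reached at most 0.174 TPM in that line, and MIR641 was listed at 0 in both candidate 42 groups. The names most like ALDH1A3 were PCDHA12 (0.938), AL731577.2 (0.933), GOLGA7 (0.932), ALG11 (0.930) and ZNF607 (0.929), with r from -0.27 to 0.45 in NCI-H460.

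All replicate 3 libraries of A549 lay below 0 on the first principal component (24.6% of variance), and candidate 240 ASO3 replicate 3 was farthest out at -71.95; the other 2 libraries of that ASO were also below 0 (-10.53 and -11.73). The part of this component in the ASO3 differences was not tested. Without all replicate 3 libraries the count of called members with ASO3 remained 3. The share of all names called in that fit was not counted. Log2 fold changes there were -1.91 for AC015712.1, -0.66 for LRRK1 and -0.60 for CHSY1, and AC015712.6 had -1.98. The 6 epithelial markers summed to 6453 to 10270 TPM in A549 libraries, all with a median of 1 TPM or more, and to 2668 to 4254 TPM in NCI-H460, where CDH1 and EPCAM had medians under 1 TPM. Among lung markers, the 6 alveolar or airway markers summed to 1.40 to 4.42 TPM in A549, with SFTPA1 and SCGB1A1 at 0 throughout, and to 0.229 to 1.12 TPM in NCI-H460. Of 5 leukocyte markers 1 (CD68) had a median above 1 TPM in each line, and the 3 endothelial markers summed to at most 0.708 TPM. Of 5 fibroblast markers 1 (COL1A1) had a median above 1 TPM in A549, and 3 (COL1A1, LUM and PDGFRB) in NCI-H460. Of 4 neuroendocrine markers 2 (CHGA and SYP) did in each line, with CHGA at a median of 21.4 TPM in NCI-H460. The 3 squamous markers had medians under 1 TPM in both lines.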

How the data were processed

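RNA from 25 libraries was read as 1 table of 59427 gene names. The authors deposited TPM values per gene name (a length-scaled signal), made with kallisto and sleuth 0.30 on hg38, per the submitters' processing notes. Column sums ran from 924350 to 1179224, so the values were not rescaled to 1000000; TPM keeps no depth, so depth is unknown. The sources used here give neither the annotation release nor the strand handling. The authors' deposited comparison tables gave log2 fold changes and q-values (adjusted p-values) and are quoted as such.

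Levels were tested as log2(TPM + 0.5) over names with a mean of at least 1 TPM in a line, with limma 3.58.1 (R 4.3.3), all 5 groups of a line in 1 model with a trend in the variance, and Benjamini-Hochberg adjustment over all tested names; called means an adjusted p under 0.05. Scarce genes used log2(TPM + 0.1) and a mean of at least 0.1 TPM. Differences between lines were interactions over all 25 libraries. The code was tested on simulated data.

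The members and lists were chosen with earlier results of these data known. Named beside the 8 members are the called genes of the retinoic acid and chondroitin lists, at most 8 a list by size (1 item is not reported here), ALDH1A1 and ALDH1A2, and the 5 names most like AC015712.6 and ALDH1A3. Other neighbours named from the 15q26.3 list (PCSK6, TM2D3, SELENOS and SNRPA1) were chosen after their values were seen. Same-numbered libraries deviated together in A549 for candidate 240 (correlation with control 0.170 to 0.410 for ASO1 and 0.283 to 0.564 for ASO3). The replicate block, which pairs them, was therefore run as an alternative. The main fits and the fits for scarce genes used the groups only, with no block, so tests given without mention of the block are unpaired. Alternatives covered the constant, filter, scaling, replicate block, variance trend, a fit of the compared groups alone and leaving out each library; leaving out all replicate 3 libraries was chosen after seeing the data.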

Additional observations from a re-analysis of the deposited data

Results flagged for a closer look

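The response of CHSY1 to candidate 42 ASO3 differed between the lines by a direct test of the difference. The log2 fold change in A549 minus that in NCI-H460 was 1.51 (limma interaction, SE 0.27, 95% confidence interval 0.95 to 2.07, adjusted p = 0.0024), with 3 libraries per group in A549 and 2 in NCI-H460. In the same interaction 19.7% of all names were called, and both NCI-H460 libraries with this ASO stood apart on the first principal component of that line (72.16 and 38.71, the others -28.48 to 3.06). It passed under all 20 alternatives run, with values from 1.18 to 1.84. Both NCI-H460 libraries with this ASO were below both controls, while the A549 libraries overlapped control.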

How the results depend on the processing

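Across all alternatives, values that answer a comparison were labelled the same in 238 cases, and 17 moved or weakened. Most of these values are counts of called members. A count that went from 3 to 2, or stayed at 0, was labelled the same, so the 238 do not show that each call was kept. Among the alternatives, the share of all names called was counted only for the replicate block with candidate 240 ASO3 in A549. With candidate 240 ASO3 in A549 the count of 3 called members became 1 in a fit of the compared groups only and was 2 to 3 when single libraries were left out; AC015712.6 kept -1.95 in the fit of the compared groups only but did not pass (adjusted p = 0.0964). With candidate 42 ASO3 in A549 the count of 1 became 0 after rescaling to a common sum and 0 to 1 with single libraries left out. With candidate 42 ASO3 in NCI-H460 the count of 2 became 1 with no filter, a filter at 0.1 TPM, median-of-ratios scaling and the compared groups only, and 1 to 2 with single libraries left out. With candidate 240 ASO3 in NCI-H460 the count of 0 became 1 (CHSY1) in the compared groups only. The interaction count of 1 for candidate 42 ASO3 became 2, with ASB7, under a constant of 0.1, with the replicate block and without all replicate 3 libraries, and 1 to 2 with single libraries left out. The replicate block left 3 members called with candidate 240 ASO3 in A549 (LRRK1 limma adjusted p = 0.0028, CHSY1 0.0052), against 25.1% of all names. Beside ASB7 in the interaction and the counts of the retinoic acid and chondroitin lists, given with those lists, the block changed no call of a member reported. Signs turned among values that never passed when single libraries were left out: with ASO3 in A549, ASB7 ran from -0.32 to 0.30, LINS1 from -0.39 to 0.18 and ALDH1A3 from -0.48 to 0.16; with ASO1 in A549, CHSY1 from -0.10 to 0.16, AC015712.1 from -0.0019 to 0.17, ALDH1A3 from -0.33 to 0.20 and LRRK1 from -0.091 to 0.062; with ASO3 in NCI-H460, ASB7 from -0.39 to 0.13 and ALDH1A3 from -0.062 to 0.74. Without all replicate 3 libraries ASB7 was -0.12 with ASO3 and CHSY1 -0.062 with ASO1 in A549. The causes were not tested. Depth is unknown, and 2 libraries a group limit NCI-H460.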
